A study of Mus musculus with 6 samples.

Results

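Transcripts of 7 cytokine and chemokine genes of B cells were examined in follicular B cells with and without GPR174. The genes were Tnf, Lta, Ltb, Il1b, Ccl3, Ccl4 and Tgfb1, taken by name from a table of read counts for 12431 genes. All 7 were in the table. The libraries came from follicular B cells (CD21/35- CD23+) sorted from the spleens of adult male mice and cultured for 1 h in complete medium with no added stimulus. WT mice carried Gpr174+/Y (3 libraries) and KO mice carried Gpr174-/Y (3 libraries). In the KO mice a tdTomato reporter stands in for the coding exon of Gpr174 in every cell, so the loss was not limited to B cells. GPR174 is a receptor for lysophosphatidylserine that couples to the G protein subunit Gαs and so raises cAMP.

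Cytokines of B cells shape lymphoid tissue as well as inflammation. The tumor necrosis factor (TNF) group has secreted and membrane-bound ligands: Tnf encodes TNF, Lta encodes lymphotoxin-α, and Ltb encodes lymphotoxin-β, which anchors lymphotoxin-α at the surface in a complex read by the lymphotoxin-β receptor on stromal cells. B cell TNF and lymphotoxin are known for maintaining follicles and follicular dendritic cells in the spleen. Interleukin (IL)-1β is made as a precursor that inflammasomes cleave, and is better known from myeloid cells. Ccl3 and Ccl4 encode chemokines that draw in T cells and myeloid cells. Tgfb1 encodes transforming growth factor (TGF)-β1, a regulator of class switching and of lymphocyte responses that is stored in a latent form.

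Tnf, Lta and Ltb lie side by side on mouse chromosome 17 (mm10). Ltb spans 35194439 to 35196320, Tnf spans 35199381 to 35202007 and Lta spans 35203165 to 35205351. Gaps of 3060 bp between Ltb and Tnf and 1157 bp between Tnf and Lta separate them. Ccl3 (83647844 to 83649355) and Ccl4 (83662584 to 83664683) are neighbors on chromosome 11. Il1b lies on chromosome 2 (129364570 to 129371139) and Tgfb1 on chromosome 7 (25687002 to 25705077). In the GENCODE annotation an antisense gene, Il1bos, overlaps Il1b, and a microRNA gene lies within each of Lta and Ltb. Whether strand was used in counting was not stated, so reads of Il1b and Il1bos cannot be told apart. None of these 3 overlapping genes had a row in the count table.

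The bases just upstream of the start sites are shown for Tnf and Lta, their neighbor Ltb, and Il1b, because these were the members whose WT and KO values did not overlap. They are from RefSeq (GRCm38.p6, the mm10 assembly), which held start-site sequence for 6 of the 7 members, and Ccl4 was not among them. Each runs 5′ to 3′ on the strand of the gene, and that of Ltb stops at the first base of its annotated span. Capitals mark a TATA box (TATAAA) or a match to the consensus motif of NF-κB, a factor known to drive genes of the TNF group.
Tnf (chr17:35202008-35202257, strand -): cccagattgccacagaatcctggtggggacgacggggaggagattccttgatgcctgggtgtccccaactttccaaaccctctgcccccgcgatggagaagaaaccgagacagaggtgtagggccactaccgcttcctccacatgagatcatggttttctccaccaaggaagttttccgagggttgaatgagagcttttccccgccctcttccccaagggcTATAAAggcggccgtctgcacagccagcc
Lta (chr17:35205352-35205601, strand -): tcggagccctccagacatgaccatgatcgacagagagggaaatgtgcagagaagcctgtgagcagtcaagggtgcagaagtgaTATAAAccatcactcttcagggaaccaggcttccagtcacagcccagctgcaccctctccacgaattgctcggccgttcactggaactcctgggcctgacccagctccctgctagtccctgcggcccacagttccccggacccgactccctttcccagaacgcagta
Ltb (chr17:35194257-35194438, strand +): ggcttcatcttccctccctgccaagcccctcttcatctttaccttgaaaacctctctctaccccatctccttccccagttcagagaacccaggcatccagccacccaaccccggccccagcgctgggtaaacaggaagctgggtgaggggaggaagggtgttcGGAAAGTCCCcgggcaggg
Il1b (chr2:129371140-129371389, strand -): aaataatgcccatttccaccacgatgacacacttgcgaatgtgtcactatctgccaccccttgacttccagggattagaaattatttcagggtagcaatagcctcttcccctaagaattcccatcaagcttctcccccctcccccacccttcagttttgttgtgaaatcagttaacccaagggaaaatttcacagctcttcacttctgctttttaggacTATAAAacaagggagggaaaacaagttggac

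A TATA box lay 29 bases before the start of Tnf and 31 bases before that of Il1b. In Lta the same letters lay 167 bases upstream. The NF-κB consensus matched in Ltb, on the opposite strand, 87 bases before the RefSeq start, and in Tgfb1. Of 32851 such windows of 250 bases, 12.4% held TATAAA and 7.25% held the NF-κB consensus on either strand. The cAMP response element TGACGTCA and its core TGACG, and the AP-1 motif TGANTCA, were in none of the 6 members' windows. Of all windows, 1.55%, 17.8% and 6.75% held these. TGACG is contained in TGACGTCA. A match or its absence describes only these letters.

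Total counts ranged from 8452460 to 10944833 per library, and 10514 genes passed a filter on low counts. Levels are given as CPM, a gene's count divided by the scaled library size and multiplied by 1e+06. The lowest count of a member in any library was 25, whereas a floor of 3 counts equaled 0.273 to 0.358 CPM, so no member was near the detection floor in either group. All 7 passed the filter. Gpr174 had a level of 127.6 CPM ± 7.43 in WT against 99.95 ± 0.205 in KO (SD, n = 3). Nr4a1 and Cd86, genes of B cell activation, were higher in WT (log2 fold changes 1.69 and 0.61, edgeR adjusted p 0.0198 and 0.00289). For Gpr174, reads at the 3′ end need not come from the replaced exon, so its level gave no check of genotype. WT replicate 2 stood apart, with a score of 47.2 on the first principal component of all tested genes (34.7% of the variance) against -14.3 to -2.81 in the other libraries. Without it 2 members, Ltb and Il1b, were called. The cells carried B cell transcripts such as Ms4a1 (WT 1285 CPM, KO 1346 CPM) and Fcer2a, which encodes CD23 (430 and 519 CPM). Cr2, which encodes CD21/35, was at 1043 and 1057 CPM although the sorted cells are described as CD21/35-.

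To ask whether GPR174 affects cytokine transcripts early in culture, WT and KO were compared across all genes with edgeR's quasi-likelihood test. Il1b was higher in WT B cells. Tnf and Ltb were lower in WT, that is, higher in GPR174-deficient cells. Thus 3 of 7 members were called at an adjusted p under 0.05, 1 higher and 2 lower in WT, whereas 1.82% of all tested genes were called, 1.30% higher and 0.514% lower. WT and KO values did not overlap for 4 of the 7 (Tnf, Lta, Ltb and Il1b), against 16.7% of all tested genes. The median absolute log2 fold change was 0.53 over the members and 0.15 over all tested genes. The members were chosen with earlier results of these data known, so these contrasts with all tested genes only describe the set. In these bulk samples, fewer cells that express a gene and less RNA per cell cannot be told apart.

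**Figure D1:**
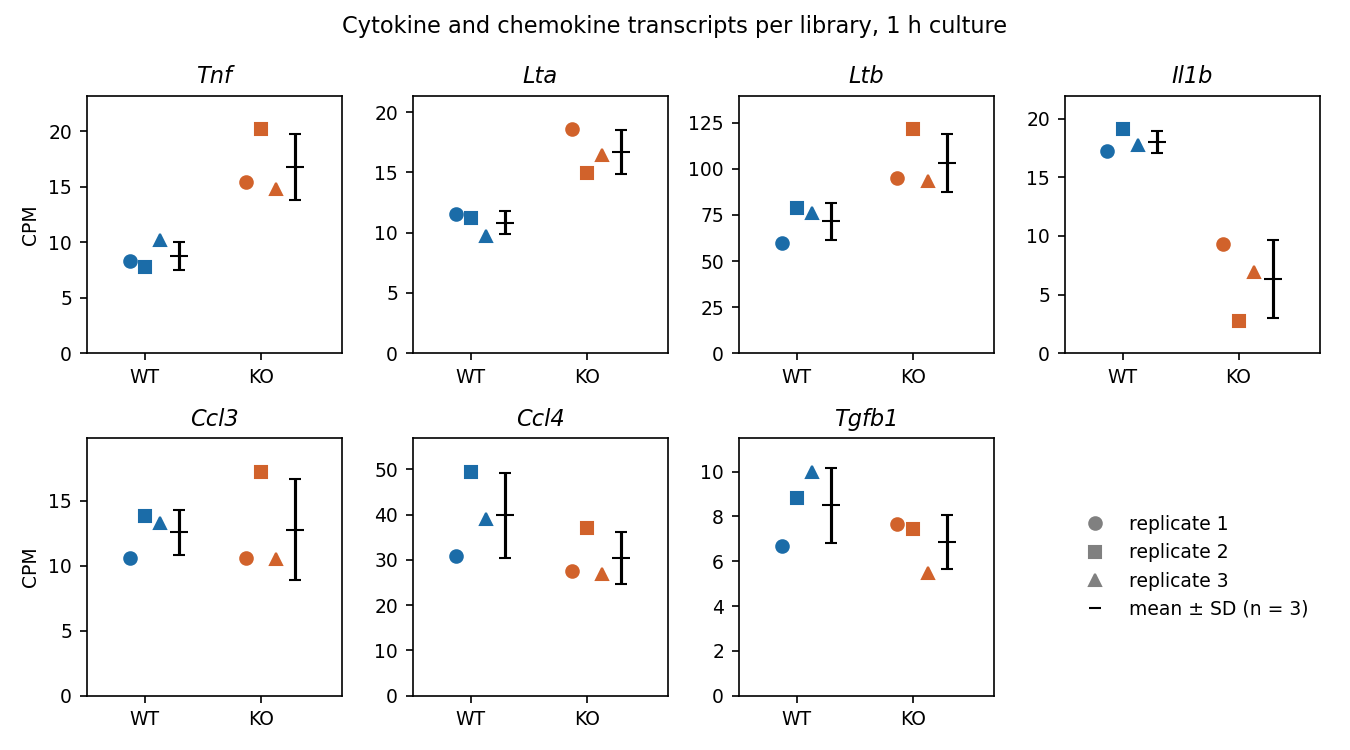
Level of each of the 7 transcripts (vertical axes, CPM, each starting at 0) in 3 WT and 3 KO libraries after 1 h of culture. Points are libraries and bars are the mean ± SD (n = 3). Tnf, Lta and Ltb lie higher in all KO libraries, Il1b lies higher in all WT libraries, and the groups overlap for Ccl3, Ccl4 and Tgfb1.

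In replicate order, Tnf was counted 91, 65 and 90 times in WT and 169, 185 and 152 times in KO. The levels were 8.33, 7.75 and 10.2 CPM in WT and 15.4, 20.2 and 14.8 CPM in KO. The highest WT library was below the lowest KO library. KO cells held 1.91-fold the Tnf level of WT cells (95% interval 1.37 to 2.66), which is -0.94 ± 0.23 (SE) as log2 of WT over KO (adjusted p 0.0304, edgeR). The Tnf call was lost in 5 of the 6 tests that each left out 1 library and kept only without WT replicate 3 (adjusted p 0.0454), and the value farthest from the threshold came without KO replicate 2, the highest library (log2 fold change -0.79, adjusted p 0.239). With limma-voom the adjusted p was 0.0516.

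Ltb was counted more deeply, with 656, 658 and 668 reads in WT and 1042, 1113 and 960 in KO. Its levels were 60.0, 78.5 and 75.8 CPM in WT and 94.8, 121.3 and 93.6 CPM in KO, and the groups did not overlap. KO cells held 1.45-fold the WT level (95% interval 1.22 to 1.71). As log2 of WT over KO this was -0.53 ± 0.12 (SE, edgeR adjusted p 0.0134). The Ltb call was lost without WT replicate 1, the lowest library (-0.42, adjusted p 0.0841), and without KO replicate 2, the highest (-0.40, adjusted p 0.164). It was kept in the other 4 such tests, and without WT replicate 2 the adjusted p was 0.00604.

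Lta levels were 11.5, 11.2 and 9.76 CPM in WT and 18.6, 14.9 and 16.5 CPM in KO. Every KO library was above every WT library. Its log2 fold change of -0.62 ± 0.22 (SE) had a 95% interval from -1.06 to -0.18, but the edgeR adjusted p was 0.192 and Lta was not called. Its adjusted p stayed between 0.155 and 0.484 in all 16 alternatives run. The 3 neighboring genes of the TNF group therefore had values in the same direction, of which Tnf and Ltb passed the test.

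Genes around this cluster were examined for the same direction. Within 50 kb of the starts of Tnf, Lta and Ltb, 6 other genes were tested. By edgeR, DESeq2 and limma-voom 0 of them were called, and 1, Prrc2a (log2 fold change -0.21), had an unadjusted p under 0.05. Nfkbil1, the nearest tested gene beyond Lta, had 4.56 CPM in WT against 6.93 in KO (log2 fold change -0.61, adjusted p 0.491). Lst1, the nearest on the side of Ltb, had -0.01 (adjusted p 0.993). The most abundant, the RNA helicase gene Ddx39b, had -0.16 (adjusted p 0.442). Aif1 (-0.21, adjusted p 0.842) and Atp6v1g2 (0.85, adjusted p 0.65) were also not called. Around Tgfb1, 4 neighbors (Exosc5, B9d2, Ccdc97 and Hnrnpul1) were tested and 0 were called by any of the 3 tools or had an unadjusted p under 0.05.

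Il1b showed the opposite direction. Counts were 188, 160 and 156 in WT and 102, 25 and 71 in KO. Levels were 17.2, 19.1 and 17.7 CPM in WT and 9.28, 2.73 and 6.92 CPM in KO. WT libraries were close together and KO libraries spread widely, with all KO values below all WT values. WT cells held 2.82-fold the KO level (95% interval 1.83 to 4.34). On the log2 scale the difference was 1.50 ± 0.30 (SE, edgeR adjusted p 0.00672).

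Among the members, Il1b also had the widest spread within a group. Its coefficient of variation was 5.4% in WT and 52.6% in KO, where counting error alone gives 7.72% and 12.3%. The count of 25 in KO replicate 2 (exact Poisson 95% interval 16.2 to 36.9, for counting error only) was below the interval of 83.2 to 124 in KO replicate 1. Without KO replicate 2 the log2 fold change was 1.14 (adjusted p 0.0245). The call was lost without KO replicate 3 (1.56, adjusted p 0.0529) and kept in the other 5 tests that left out 1 library.

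Because Il1b is known from myeloid cells, their markers were measured in the same libraries, although the sort for CD21/35- CD23+ cells was meant to leave such cells out. Of 15 listed myeloid markers, 13 were in the table, 8 were tested and 0 were called by edgeR, DESeq2 or limma-voom. An unadjusted p under 0.05 was found for 1, Fcer1g. Their summed level was 104.1, 75.5 and 91.2 CPM in WT and 78.5, 70.3 and 79.5 CPM in KO, so the groups overlapped. The defining markers Lyz2 (3.62 CPM in WT and 2.14 in KO) and Csf1r (24.0 and 21.4 CPM, with a counted gene on its opposite strand) were not at 0. Il1b per 100 CPM of summed myeloid markers was 16.5, 25.3 and 19.4 in WT and 11.8, 3.88 and 8.70 in KO. This ratio was chosen after the values were seen. The summed markers were 1.19-fold higher in WT, and the 8 tested had a median log2 fold change of 0.47. Their part in the Il1b difference was not tested.

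The 2 chemokines did not pass the test. Ccl3 was at 10.6, 13.8 and 13.3 CPM in WT and 10.6, 17.2 and 10.5 CPM in KO. Its log2 fold change was -0.02 ± 0.24 (SE), with a 95% interval from -0.52 to 0.48 and an edgeR adjusted p of 0.987, and the sign turned in 4 of 16 alternatives. KO replicate 2 held the highest Ccl3 level, and without it the log2 fold change was 0.25. Ccl4 was at 30.9, 49.5 and 39.1 CPM in WT and 27.5, 37.1 and 26.8 CPM in KO, with overlapping groups. The log2 fold change of Ccl4 was 0.39 ± 0.17 (SE), with a 95% interval from 0.04 to 0.73 and an edgeR adjusted p of 0.354. With 1 library left out it ranged from 0.20 without WT replicate 2 (edgeR adjusted p 0.752) to 0.55 without KO replicate 2 (0.232). Replicate 2 had the highest Ccl3 and Ccl4 levels within each genotype.

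Tgfb1 was at 6.68, 8.82 and 9.99 CPM in WT and 7.65, 7.41 and 5.46 CPM in KO. The groups overlapped, and Tgfb1 was not called (log2 fold change 0.31 ± 0.29, SE, 95% interval -0.28 to 0.90, edgeR adjusted p 0.754). Its counts, 56 to 88 per library, were among the lowest of the members.

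**Figure D2:**
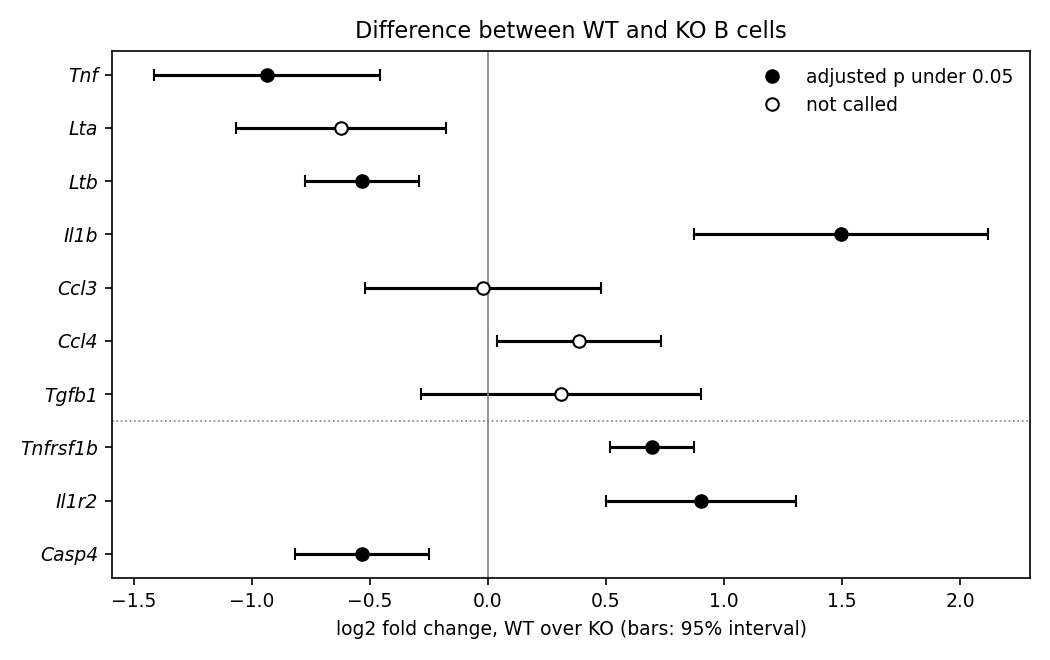
Log2 fold changes (WT over KO, horizontal axis) of the 7 members, above the dotted line, and of 3 receptor or processing genes that passed the test, below it. Points are edgeR estimates and bars are 95% intervals. Filled points have an adjusted p under 0.05. Il1b at 1.50 and Tnf at -0.94 are the members farthest from 0, and the receptor gene Il1r2 lies at 0.90.

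Receptors of these ligands were examined next, from a list of 14 genes chosen with earlier results of these data known. Of 10 receptor genes tested, 2 were called higher in WT and 0 lower, against 1.30% and 0.514% of all tested genes. The median log2 fold change of the 10 was 0.33, against -0.003 for all tested genes. Medians of similar size or larger were found for the tested markers of NK cells (0.83), neutrophils (0.54), myeloid cells (0.47), T cells (0.42), platelets (0.32) and plasma cells (0.28), so a median above 0 was not particular to the receptors. Tnfrsf1b encodes TNF receptor 2, the receptor that prefers membrane-bound TNF. Its levels were 187.7, 207.1 and 228.4 CPM in WT and 127.0, 134.0 and 124.1 CPM in KO, with no overlap. WT over KO this was 0.69 ± 0.09 (SE) in log2 units (edgeR adjusted p 6.03e-06), and the call was kept in all 16 alternatives. Tnfrsf1b was higher in WT, where Tnf was lower. Tnfrsf1a, which encodes TNF receptor 1, had 0.746 CPM in WT against 1.09 in KO and was not called (adjusted p 0.881). Ltbr did not pass the filter on low counts, at 1.44 and 0.491 CPM.

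Il1r2 encodes a decoy receptor that binds IL-1β without signaling. It was at 24.7, 21.3 and 22.0 CPM in WT and 12.0, 10.9 and 13.6 CPM in KO, and the groups did not overlap. WT cells held 1.87-fold the KO level (95% interval 1.41 to 2.47), a difference of 0.90 ± 0.20 (SE) on the log2 scale (edgeR adjusted p 0.0102). The call was lost without WT replicate 1 (adjusted p 0.0583), KO replicate 1 (0.0550) and KO replicate 2 (0.0805), and kept in the other 3 such tests. Il1r2 overlaps a counted gene on the opposite strand, Gm16894, so its count is uncertain. The signaling receptor Il1r1 was at 1.72 and 1.25 CPM (adjusted p 0.853). Of the TGF-β receptors, Tgfbr2 was at 269.5 and 259.0 CPM (adjusted p 0.853) and Tgfbr1 at 39.2 and 30.2 CPM (log2 fold change 0.37, adjusted p 0.248).

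**Figure D3:**
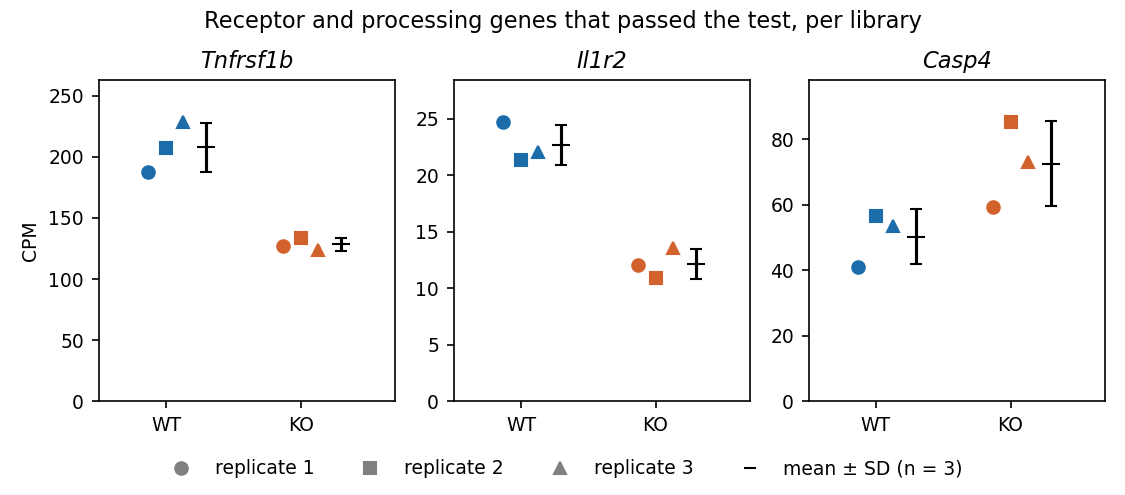
Level of Tnfrsf1b, Il1r2 and Casp4 (vertical axes, CPM, each starting at 0) in 3 WT and 3 KO libraries. Points are libraries and bars are the mean ± SD (n = 3). Both receptor genes lie higher in all WT libraries and Casp4 lies higher in all KO libraries.

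Genes for the processing, storage and release of the ligands were examined in the same way. Of 13 tested, 1 was called, against 1.82% of all tested genes. It was Casp4, which encodes an inflammatory caspase. Casp4 was at 40.8, 56.4 and 53.5 CPM in WT and 59.3, 85.1 and 73.1 CPM in KO. The groups were separated by a small gap, and KO cells held 1.45-fold the WT level, or -0.53 ± 0.14 (SE) as log2 of WT over KO (edgeR adjusted p 0.0437). It was not called with limma-voom (adjusted p 0.0564) or ordinary dispersions (0.0566), nor without WT replicate 1 (0.184), WT replicate 3 (0.0885), KO replicate 2 (0.303) or KO replicate 3 (0.216). Adam17, whose protease sheds TNF, was at 104.8 and 104.2 CPM (adjusted p 0.986). Casp1, whose protease matures IL-1β, was at 67.1 and 75.0 CPM (adjusted p 0.651). Lrrc33, whose product holds latent TGF-β1, was at 351.5 and 343.8 CPM (adjusted p 0.906). Adam17 overlaps a counted gene on the opposite strand.

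Of 18 other cytokine and chemokine genes tested, 0 were called by edgeR, DESeq2 or limma-voom, and 4 (Il16, Tgfb3, Vegfa and Cklf) had an unadjusted p under 0.05. They were 11 tested interleukins and other cytokines, 6 tested chemokines and 1 tested ligand of the TNF superfamily, Tnfsf10. The most abundant of them was Il16, whose product draws in T cells, with a WT level of 124.5 CPM ± 4.62 against 151.4 ± 11.3 in KO (SD, n = 3, log2 fold change -0.28, adjusted p 0.11). Il16, Tgfb3 and Cxcl16 each overlap a counted gene on the opposite strand. Tgfb3, a relative of Tgfb1, was at 45.5 CPM ± 1.99 and 35.4 CPM ± 3.94 (0.36, adjusted p 0.219), and the growth factor gene Grn at 33.1 and 36.5 CPM (adjusted p 0.764). Among chemokines, Cklf was at 42.1 and 33.0 CPM (adjusted p 0.269), Cxcl16 at 12.7 and 11.9 CPM (adjusted p 0.949) and Ccl5 at 12.6 and 11.0 CPM (adjusted p 0.84). Il10, a suppressive cytokine of some B cells, did not pass the filter, at 0.144 and 0.568 CPM.

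Markers of the sorted cells and of other cells were summed per library and compared by a two-sided exact permutation test, whose smallest p for 3 against 3 is 0.1. Over 10 lists, the sums did not overlap for 3, each at the exact permutation p of 0.1 (0.333 after Benjamini-Hochberg adjustment). Follicular B cell markers ranged from 3750 to 3941 CPM in WT and from 4225 to 4340 CPM in KO. Of the 8, 1 was called, Cd79b (log2 fold change -0.39, edgeR adjusted p 0.000358), against 1.82% of all tested genes. Fcer2a (-0.27), Cd22 (-0.18), Blnk (-0.08) and Ms4a1 (-0.07) were also lower in WT, uncalled. Pax5 (0.18), Cd79a (0.05) and Cxcr5 (0.04) were higher, also uncalled. This sum cannot separate the share of follicular B cells from the level of single genes. NK cell markers were 8.74 to 16.9 CPM in WT and 7.55 to 8.29 CPM in KO, with 4 of 7 above 1 CPM. Plasma cell markers were 35.5 to 39.6 CPM and 27.9 to 31.5 CPM. The part of these differences in the results for the members, including Tnf, Lta, Ltb and Il1b, was not tested.

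The other sums overlapped between genotypes. In WT and KO they were 1290 to 1370 and 1259 to 1455 CPM for marginal zone B cells, 50.0 to 67.5 and 37.8 to 56.6 CPM for T cells, and 25.6 to 35.1 and 22.7 to 32.9 CPM for dendritic cells. Neutrophil markers reached 34.3 CPM in WT replicate 2 and were 2.27 to 10.7 CPM in the other WT libraries and 7.1 to 15.7 CPM in KO. Platelet markers, of interest because platelets store TGF-β1, were 49.1 to 67.3 CPM and 44.0 to 56.7 CPM. Erythroid markers were 29.7 to 64.6 CPM and 34.2 to 120.0 CPM. Of the 44 tested markers on the 9 lists other than follicular B cells, 0 were called by edgeR, DESeq2 or limma-voom and 3 had an unadjusted p under 0.05 (Fcer1g, Gzma and Slpi).

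**Figure D4:**
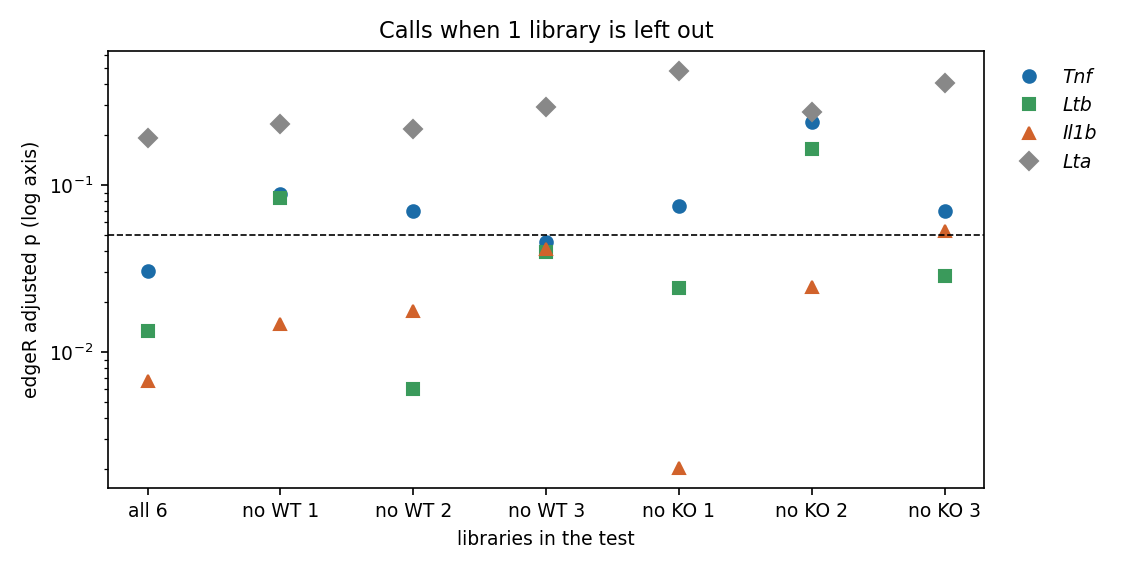
EdgeR adjusted p (vertical axis, log scale) of Tnf, Ltb, Il1b and Lta with all 6 libraries and with each library left out in turn (horizontal axis). The dashed line is the threshold of 0.05. Tnf lies above it in 5 of 6 such tests, Ltb in 2, Il1b in 1 and Lta in all 6.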

How the data were processed

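RNA of sorted follicular B cells was sequenced after 1 h of culture in 3 WT and 3 KO libraries, grouped by genotype label. No label says that each came from its own mouse, so p-values may measure only the spread between libraries. The libraries were of the 3′ end type, and the authors used STAR (mm10) for alignment, HTSeq for read counts per gene and DESeq2. Versions, annotation and strand setting are not given in the sources used here. The deposited values are raw counts, whole numbers with no normalization, and the number of unused sample columns was 0. The study's methods mention no molecular identifiers, so intervals on counts are taken to cover counting error only. Genes were filtered with filterByExpr (edgeR 4.0.16, R 4.3.3), scaled by TMM factors and tested two-sided with robust quasi-likelihood dispersions over all 10514 genes, with Benjamini-Hochberg adjustment and a threshold of 0.05. Fold changes are given as log2 of WT over KO, and their standard errors are that size divided by the square root of F. CPM are counts over TMM-scaled library sizes. No pair of replicates agreed within counting error (chi-square per degree of freedom of at least 6.89). The tests were checked on simulated counts.

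Alternatives were DESeq2 1.42.0, limma-voom (limma 3.58.1), ordinary dispersions, 3 other scalings, 2 other filters, omission of the 50 most abundant genes, a replicate block and omission of each library. Members and lists were chosen with earlier results of these data known, and 2 listed genes are not reported here. Genes named were the members, Gpr174, Nr4a1, Cd86, neighbors within 50 kb, and of each list every called gene and up to 3 of the most abundant, and any other gene was named after its values were seen. Promoters were 250 bases from RefSeq.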

Additional observations from a re-analysis of the deposited data

How the results depend on the processing

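Of the 7 members, Lta, Ccl4 and Tgfb1 kept their direction and stayed uncalled in all 16 alternatives. The count of called members was 3 in 9 of the 10 alternatives that kept all libraries, and 2 with limma-voom, where Tnf had a log2 fold change of -0.92 (adjusted p 0.0516). Without 1 library each, it ranged from 1 (without WT replicate 1, KO replicate 2 or KO replicate 3) to 3. The log2 fold changes then ranged from -1.06 to -0.79 for Tnf, from -0.61 to -0.40 for Ltb, from 1.14 to 1.88 for Il1b and from -0.14 to 0.25 for Ccl3. The number of genes called ranged from 91 (without KO replicate 3) to 183, with 113 without KO replicate 2, and these tests hold fewer libraries. With all libraries it lay within 1.5 times 191. Ccl3 turned sign with limma-voom (0.012), with the replicate block (0.0051), without WT replicate 1 (0.092) and without KO replicate 2 (0.25). The causes were not tested. DESeq2 called 2 of the 8 follicular B cell markers (Cd79b and Fcer2a) where edgeR called 1. The summed neutrophil markers, 1.55-fold higher in WT with all libraries, turned to 0.636-fold without WT replicate 2 and ranged up to 2.21-fold without WT replicate 3. Those of dendritic cells (0.967 to 1.17) and marginal zone B cells (0.96 to 1.03) also crossed 1 when 1 library was left out, and the other 7 lists kept their direction. Same-numbered libraries deviated together only weakly (correlations of 0.014 to 0.050), although each of the 6 correlated best with its own number. No label states that the numbers mark pairs, so the main test used no block. Whether they are pairs is not known. With the replicate block 281 genes and 3 members were called, against 191 genes and 3 members without it.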

Other observations

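Genes whose log2 CPM over the 6 libraries most resembled a called member were listed, restricted to those averaging 50 counts or more, with no test. For Tnf these were Mob3a (Pearson r 0.996), Clic1 (0.992) and Ceacam16 (0.986), of which Clic1 was called lower in WT (log2 fold change -0.47, edgeR adjusted p 0.00537). For Ltb they were Acy1 (0.988), A430005L14Rik (0.987) and Rnase6 (0.986), of which Rnase6 was called lower in WT (-0.39, edgeR adjusted p 0.0151). For Il1b they were Gusb (0.991), Icmt (0.979) and Hist3h2a (0.979), of which Hist3h2a was called higher in WT (0.43, edgeR adjusted p 0.0198). With 10514 genes and 6 libraries in 2 groups, values of r this high arise readily, and all the genes share the libraries and their depth.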
